A study of Mus musculus with 6 samples.

Results

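The genes described here were 9 genes of the interferon response, namely Stat2, Irf9, Irf7, Ifit1, Ifit3, Oasl2, Isg15, Bst2 and Ifi27. They were chosen by symbol, and all 9 had a row among the 21006 genes measured. The tissue was the prefrontal cortex of wild type male C57BL/6 mice that were 18 months old by the age label, although the sample titles carry 17M. The PND group (postoperative neurocognitive disorder, n = 3 mice) had inhaled 1.5% isoflurane for 30 min and then had an exploratory laparotomy, an opening and inspection of the abdomen that took 30 min under the same anesthetic. The CON group (n = 3 mice) had neither anesthesia nor operation. All mice went through fear conditioning and a Barnes maze before the brain was taken, and the isoflurane used at that point was common to both groups. The operated mice also had lidocaine cream and povidone iodine put on the wound, at the end of surgery and in the days after it. The brain was taken after the last maze test, days after the operation. Anesthesia, surgery and this wound care were always given together, so their parts cannot be told apart.

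Interferons are secreted proteins that cells release on sensing foreign or misplaced nucleic acid. They bind receptors whose JAK kinases phosphorylate STAT proteins. STAT2 and IRF9 are parts of the resulting complex ISGF3, which binds interferon-stimulated response elements (ISRE) in the promoters of target genes. The targets include Irf7, which amplifies the production of interferon, and effectors such as the RNA-binding IFIT proteins, the ubiquitin-like modifier ISG15, the OAS-like protein OASL2 and the membrane tether BST2. In brain tissue these genes are known to be used by microglia, by cells of the vessel wall and, more weakly, by neurons and other glia.

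The level of a gene is given as FPKM, the fragments of a gene scaled by its exon length and by the depth of the library. The depth, estimated from the spacing of low FPKM values, lay between 7180000 and 9383400 fragments a library. The markers of cortical neurons were present in every sample, with a summed level of 715 to 780 FPKM in PND and 726 to 805 FPKM in CON over 8 genes. In the deviations from the gene mean, the samples differed in their dependence on GC content, with a Spearman rho across genes from -0.61 in CON replicate 1 to 0.57 in PND replicate 3, and this ran in both directions within each group. The PND group was compared with the CON group over 18185 genes with limma on log2(FPKM + 0.1), and the added 0.1 makes changes of weakly expressed genes look smaller than they are. The cut-off of the study asks that the log2 fold change lies beyond 1 in either direction and that the unadjusted p lies below 0.05.

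One member, Ifit3, was lower in PND. The mean level of Ifit3 in CON was 2.12 times that in PND. Of the 9 genes, 1 passed the cut-off, and this was Ifit3. Over all genes tested, 1.33% passed it, 0.484% as lower and 0.841% as higher in PND. The adjusted p of Ifit3 over all genes was 0.9999 (limma with Benjamini-Hochberg), so the gene did not pass a correction for the number of genes tested. None of the 9 had an adjusted p below 0.05, against 0.011% of all genes, and at an unadjusted p below 0.05 the count was 1, against 3.13% of all genes (1.4% as lower in PND). For the other genes with more than 3 fragments in any sample, the unadjusted p ranged from 0.278 to 0.834.

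Promoter sequences are shown for Ifit3, for its near-identical copy Ifit3b, for Ifit1 of the same gene cluster and for Isg15, because ISGF3 acts through this part of the gene and because Ifit3 and Ifit3b were the pair with lower levels in PND. Each runs 5′ to 3′ on the strand of the gene, from 250 bases before to 50 bases after the start in RefSeq (GRCm38.p6). Capitals mark every match to the repeated core of the ISRE, which was searched on both strands as GAAA, then any 2 bases, then GAAA again. Ifit3 (chr19:34583279-34583578, plus strand), Ifit3b (chr19:34607707-34608006, plus strand), Ifit1 (chr19:34640639-34640938, plus strand) and Isg15 (chr4:156200769-156201068, minus strand) were as follows.
Ifit3: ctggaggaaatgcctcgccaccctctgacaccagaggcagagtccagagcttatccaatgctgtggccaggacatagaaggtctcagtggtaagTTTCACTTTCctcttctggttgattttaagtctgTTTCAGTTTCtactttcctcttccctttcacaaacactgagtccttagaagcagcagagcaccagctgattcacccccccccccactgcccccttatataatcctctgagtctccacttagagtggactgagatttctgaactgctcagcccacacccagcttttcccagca
Ifit3b: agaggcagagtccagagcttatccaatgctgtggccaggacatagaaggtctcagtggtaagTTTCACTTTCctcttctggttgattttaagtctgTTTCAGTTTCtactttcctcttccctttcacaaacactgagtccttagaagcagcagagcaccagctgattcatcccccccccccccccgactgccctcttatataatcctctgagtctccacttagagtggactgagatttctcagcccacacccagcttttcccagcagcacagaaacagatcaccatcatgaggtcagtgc
Ifit1: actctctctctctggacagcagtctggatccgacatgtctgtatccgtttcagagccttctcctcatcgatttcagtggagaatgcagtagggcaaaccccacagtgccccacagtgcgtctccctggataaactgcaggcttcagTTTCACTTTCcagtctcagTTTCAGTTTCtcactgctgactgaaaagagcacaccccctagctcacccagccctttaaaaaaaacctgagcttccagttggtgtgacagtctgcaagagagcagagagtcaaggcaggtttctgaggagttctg
Isg15: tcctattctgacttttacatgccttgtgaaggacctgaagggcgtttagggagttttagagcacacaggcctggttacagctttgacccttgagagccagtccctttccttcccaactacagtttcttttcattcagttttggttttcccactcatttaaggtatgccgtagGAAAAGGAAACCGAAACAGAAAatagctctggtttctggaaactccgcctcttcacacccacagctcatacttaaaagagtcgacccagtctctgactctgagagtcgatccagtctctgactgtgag

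The window of Ifit3 held 2 matches, which began 156 and 122 bases before the start. Both lay on the opposite strand and read TTTCACTTTC and TTTCAGTTTC on the strand of the gene. The same letters were found in Ifit3b at 188 and 154 bases and in Ifit1 at 104 and 85 bases before the start. The windows of Ifit3 and Ifit3b shared an unbroken stretch of 169 bases that covered both matches. Isg15 held 3 matches that overlapped each other, beginning 78, 72 and 66 bases before the start on the strand of the gene. Bst2 held 2 overlapping matches on the strand of the gene, at 130 and 124 bases, and Stat2 held 1 match on the opposite strand at 222 bases. No match was found in the windows of Irf7, Irf9 and Oasl2, and Ifi27 was not matched to a window. In all, 5 of the 8 members with a window held the motif. Of the 32851 windows of the same length in the reference, 3.44% held it, and 0.225% held at least 2. A match describes the letters only and does not show binding.

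**Figure D1:**
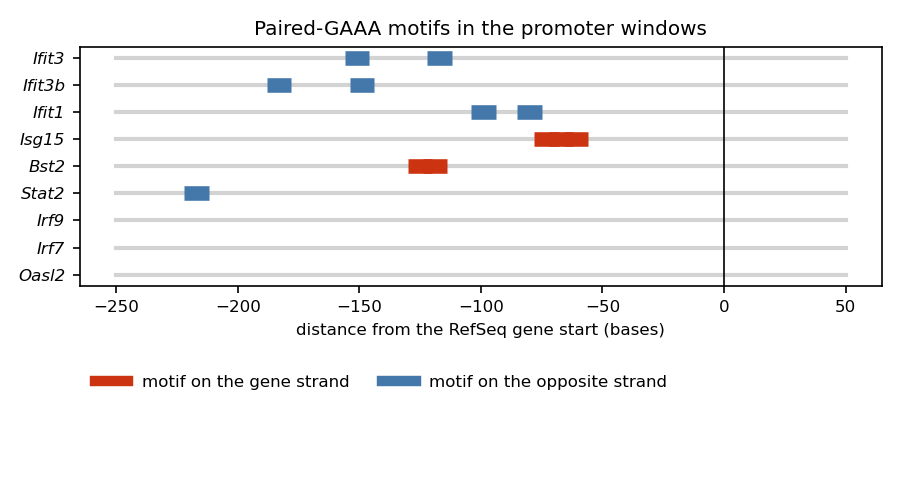
Position of the paired-GAAA motif in the promoter window of each gene, in bases from the RefSeq start (the vertical line); red blocks lie on the strand of the gene and blue blocks on the opposite strand. Ifit3, Ifit3b and Ifit1 each hold 2 matches on the opposite strand, and Isg15 holds 3 overlapping ones.

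The transcription factors that carry the interferon signal were examined first. Stat2 (ENSMUSG00000040033, chromosome 10, 128270559 to 128292849 in GRCm38, protein-coding) encodes a subunit of ISGF3. Its mean over the 6 samples was the highest of the 9 genes. In CON alone, the mean of Ifit3 (5.15 FPKM) was above that of Stat2 (5.04 FPKM). Stat2 had 4.89, 4.74 and 5.82 FPKM in PND replicates 1 to 3 and 4.08, 6.08 and 4.96 FPKM in CON replicates 1 to 3. The highest and the lowest sample both belonged to CON, and the groups overlapped. The means were 5.15 ± 0.586 FPKM for the PND mice and 5.04 ± 1.0 FPKM for the CON mice (SD, n = 3). Its log2 fold change was 0.04 (95% interval -0.39 to 0.48, unadjusted p 0.821 in limma), so a change of Stat2 beyond the study's cut-off lay outside the interval in either direction.

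Irf9 (ENSMUSG00000002325, chromosome 14, 55603571 to 55610030) encodes the DNA-binding subunit of ISGF3. Its level was 0.553, 0.501 and 0.856 FPKM in PND and 0.389, 0.701 and 1.21 FPKM in CON. The 3 PND samples lay within the range of the CON samples. This gave a log2 fold change of -0.15 (95% interval -1.13 to 0.83, unadjusted p 0.727 in limma), and it was 0.21 without CON replicate 3. Its exons overlap those of Rnf31 on the same strand by 123 bases, so some reads could belong to either gene.

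Irf7 (ENSMUSG00000025498, chromosome 7, 141262706 to 141266481) encodes the factor that drives the transcription of interferon genes. Its level was 0.0704, 0.197 and 0.182 FPKM in PND and 0.312, 0.153 and 0.152 FPKM in CON. These values rested on an estimated 14.7 fragments over the 3 PND samples and 17.6 fragments over the 3 CON samples. The groups overlapped, with a log2 fold change of -0.29 (95% interval -1.30 to 0.72, unadjusted p 0.521 in limma). On the log2(FPKM + 0.1) scale a decrease of 1 lay within this interval. The added 0.1 makes changes look smaller at the low level of Irf7. The interval therefore does not settle whether its FPKM changed by as much as the cut-off asks, in either direction. The gene overlaps an exon of Phrf1 on the opposite strand by 45 bases.

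**Figure D2:**
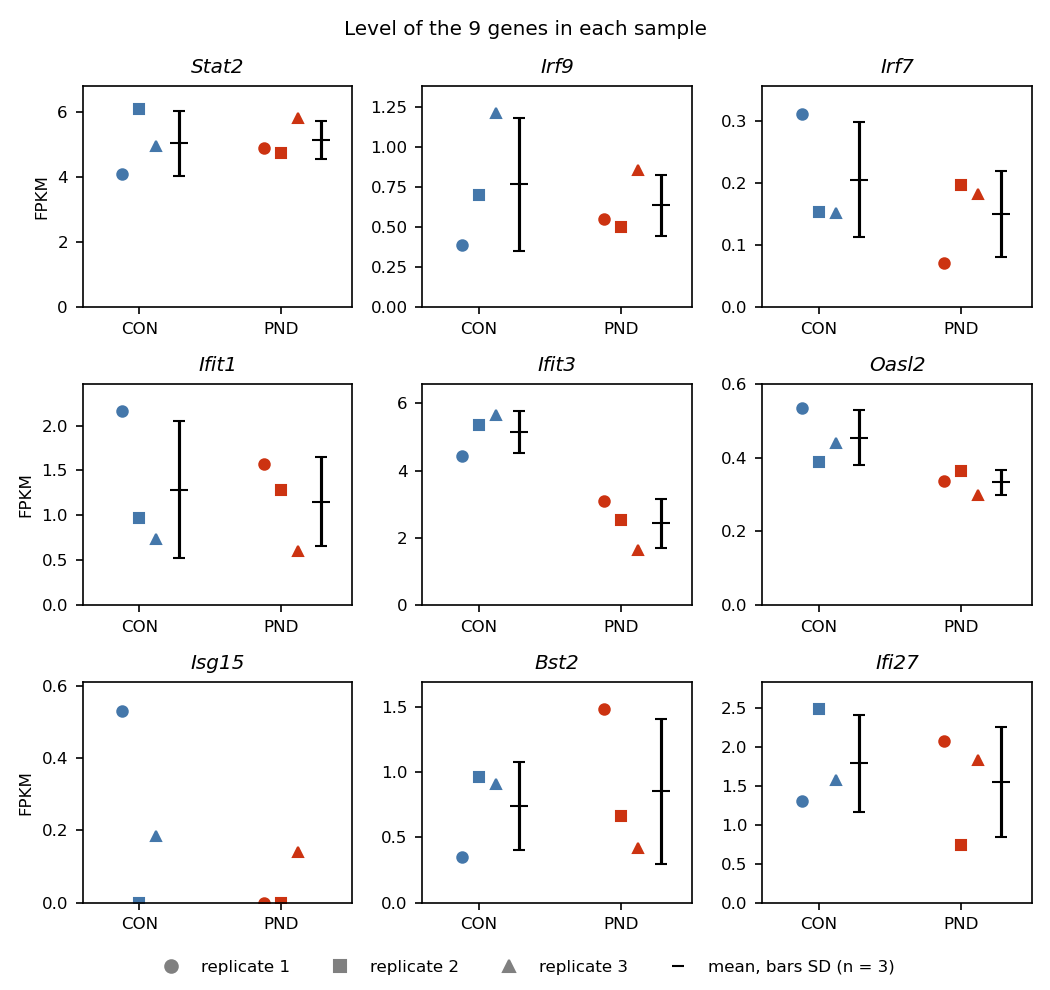
FPKM of the 9 genes in each CON (blue) and PND (red) sample, with the replicate number by symbol and, beside them, the mean with bars of 1 SD (n = 3; not drawn for Isg15, which had at most 3 fragments in any sample). Ifit3 and Oasl2 are the genes whose 3 PND samples all lie below the 3 CON samples, and every axis starts at 0.

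Among the effectors, Ifit3 (ENSMUSG00000074896, chromosome 19, 34583531 to 34588731, plus strand, protein-coding) encodes an interferon-induced protein of the IFIT family. Its level was 3.11, 2.54 and 1.65 FPKM in PND and 4.43, 5.34 and 5.66 FPKM in CON. The highest PND sample thus lay below the lowest CON sample. The values corresponded to 48.1, 34.9 and 27.0 estimated fragments in PND and to 57.9, 75.9 and 70.9 in CON, or 110 against 205 in all. The PND mean was 2.43 ± 0.736 FPKM and the CON mean 5.15 ± 0.635 FPKM (SD, n = 3). The log2 fold change was -1.09 (SE 0.25, 95% interval -1.67 to -0.50), with an unadjusted p of 0.00291 in limma, which ranked 45 among the genes tested. The exact two-sided permutation test gave p = 0.1, the smallest value that 3 samples against 3 allow. Without PND replicate 3, the lowest sample, the change was -0.84 (unadjusted p 0.00575 in limma), which ended the call because it was not beyond 1.

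Ifit3b (ENSMUSG00000062488, chromosome 19, 34607970 to 34613401) is a near-identical copy of Ifit3 and is not one of the 9 genes. Of the 50-base stretches of the longest Ifit3 transcript, 51.2% were also found in Ifit3b, so the reads of the pair cannot be fully separated. Ifit3b had 1.47, 1.08 and 1.86 FPKM in PND and 2.74, 2.58 and 2.78 FPKM in CON. Here too all PND samples lay below all CON samples. The log2 fold change of Ifit3b was -0.86 (SE 0.23, unadjusted p 0.00699, adjusted p 0.9999 in limma), which is short of the cut-off. Without PND replicate 3 it was -1.04 and passed, so the same sample moved the 2 copies in opposite directions. With the fragments of both genes added together, the level was 2.23, 1.76 and 1.76 FPKM in PND and 3.53, 3.87 and 4.12 FPKM in CON. On the log2 scale the sum differed by -0.97 (SE 0.18). The adjusted p in limma was 0.717, and before adjustment it was 0.00084.

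Ifit1 (ENSMUSG00000034459, chromosome 19, 34640871 to 34650009) encodes a protein that binds viral RNA lacking the methylation of a host cap. Its level was 1.57, 1.29 and 0.602 FPKM in PND and 2.16, 0.970 and 0.733 FPKM in CON. The spread within each group was wider than the difference between them. On the log2 scale the change was -0.10 (95% interval -1.21 to 1.0, unadjusted p 0.834 in limma). Leaving out PND replicate 3 gave 0.27, and leaving out CON replicate 1 gave 0.32. A change of Ifit1 as large as that of Ifit3 was thus within its interval, and a difference between the changes of Ifit3 and Ifit1 was not tested.

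The genes lie in 1 cluster of 6 Ifit genes on chromosome 19, which spans 99.3 kb. In order of position these are Ifit2, Ifit3, Ifit1bl1, Ifit3b, Ifit1bl2 and Ifit1. Ifit2, at the near end, had 4.97, 5.10 and 4.05 FPKM in PND and 6.05, 4.44 and 4.97 FPKM in CON, with a log2 fold change of -0.12 (unadjusted p 0.503 in limma). Ifit1bl1, which lies between Ifit3 and Ifit3b on the other strand, had a log2 fold change of -0.13 (unadjusted p 0.709), and Ifit1bl2 had -0.01 (unadjusted p 0.973). In these 3 genes and in Ifit1 the groups overlapped.

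**Figure D3:**
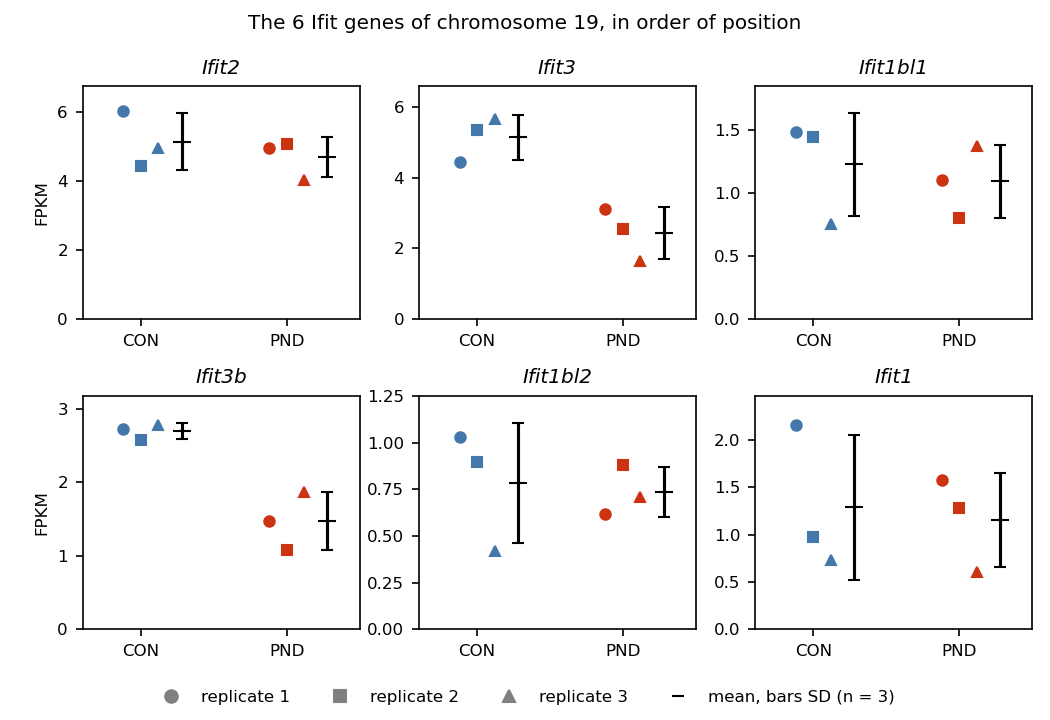
FPKM of the 6 Ifit genes of chromosome 19, placed in order of position from Ifit2 to Ifit1, in each CON (blue) and PND (red) sample, with the mean and bars of 1 SD (n = 3). The PND samples lie below the CON samples without overlap in Ifit3 and in Ifit3b, and they overlap in the other 4 genes.

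Oasl2 (ENSMUSG00000029561, chromosome 5, 114896936 to 114912234) encodes an antiviral protein of the OAS-like family. Its level was 0.337, 0.366 and 0.298 FPKM in PND and 0.535, 0.389 and 0.441 FPKM in CON. All PND samples lay below all CON samples, although PND replicate 2 and CON replicate 2 were close to each other. Of all genes tested, 7.66% had groups that did not overlap, 3.88% with PND below CON and 3.78% with PND above CON. Ifit3 and Oasl2 were the 2 of the 9 members in this class. The estimate for Oasl2 on the log2 scale was -0.35 (95% interval -1.05 to 0.35, unadjusted p 0.278 in limma), and the exact two-sided permutation test gave p = 0.1, again the smallest possible. The values rested on about 17.8 to 25.5 fragments per sample.

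Isg15 (ENSMUSG00000035692, chromosome 4, 156199424 to 156200818) encodes a ubiquitin-like protein that is attached to newly made proteins. It was listed at 0 in PND replicates 1 and 2 and in CON replicate 2. The remaining values were 0.141 FPKM in PND replicate 3, 0.529 FPKM in CON replicate 1 and 0.184 FPKM in CON replicate 3, which correspond to 1.0, 2.99 and 1.0 fragments. No sample was above 3 fragments, so no fold change is given, and a difference was not detectable at this depth.

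Bst2 (ENSMUSG00000046718, chromosome 8, 71534255 to 71537456) encodes tetherin, which holds budding virus particles at the cell surface. Its level was 1.48, 0.662 and 0.418 FPKM in PND and 0.349, 0.964 and 0.910 FPKM in CON. The single highest value was in PND replicate 1 and the lowest in CON replicate 1. The change on the log2 scale was 0.12 (95% interval -1.08 to 1.33, unadjusted p 0.817 in limma), with 20.1 and 15.3 estimated fragments in the groups. Its direction turned without PND replicate 1 (log2 fold change -0.32) and without CON replicate 1 (-0.28).

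Ifi27 (ENSMUSG00000064215, chromosome 12, 103434211 to 103440239) encodes a small hydrophobic protein induced by interferon. Its level was 2.08, 0.742 and 1.83 FPKM in PND and 1.30, 2.50 and 1.58 FPKM in CON. The groups overlapped, with PND replicate 2 the lowest of all samples. For Ifi27 the log2 fold change was -0.26 (95% interval -1.23 to 0.71, unadjusted p 0.547 in limma), and it was 0.17 without PND replicate 2.

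**Figure D4:**
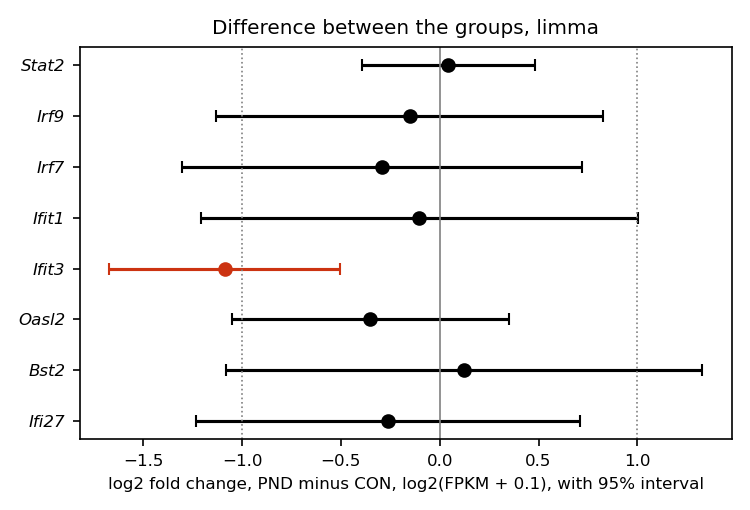
Log2 fold change of each gene between the PND and CON groups on the log2(FPKM + 0.1) scale, with its 95% interval from limma; dotted lines mark a change of 1 in either direction, and Isg15 is left out because no sample had more than 3 fragments. The interval of Ifit3 (red), from -1.67 to -0.50, is the one that does not include 0.

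Considered together without Isg15, 6 of the 8 genes had a log2 fold change below 0, and the median was -0.21. Of these 6, Ifit1, Irf9 and Ifi27 turned positive when 1 sample was left out. Over all genes tested the median was 0.01, and 47.6% were below 0. With Isg15 on the fitted scale the median of the 9 genes was -0.26. Across genes, the mean level over the 6 samples fell in the order Stat2 (5.10 FPKM), Ifit3 (3.79), Ifi27 (1.67), Ifit1 (1.22), Bst2 (0.797), Irf9 (0.702), Oasl2 (0.394), Irf7 (0.178) and Isg15 (0.142). The sample ranges of each pair of neighbours in this order overlapped. The PND means fell in the same order, and the CON means did not. In CON, Ifit3 (5.15 FPKM) lay above Stat2 (5.04) and Irf9 (0.768) above Bst2 (0.741). Isg15 (0.238), on at most 3 fragments a sample, lay above Irf7 (0.205) there. Stat2 stood at percentile 66.7 of the mean levels of all genes tested, and Isg15 at percentile 3.81.

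The genes were then compared with each other from mouse to mouse, without Isg15. Across the 6 samples, 15 of the 28 pairs of the other 8 genes were positively correlated on the log2 scale, and the median Pearson r was 0.08. The extremes were Ifit3 with Oasl2 (r = 0.74) and Irf7 with Bst2 (r = -0.91), the latter on 2.36 to 8.80 fragments a sample for Irf7 and 2.36 to 11.8 for Bst2. These are descriptions over 6 samples that share depth and base composition effects. CON replicate 1, the sample in which GC-rich genes were lowest, had the highest level of Ifit1, Irf7, Isg15 and Oasl2 and the lowest level of Stat2, Irf9 and Bst2. The part of GC content in these patterns was not tested gene by gene. The GC correction removes only the average deviation of genes of similar GC content. With it the log2 fold change of Ifit3 was -1.09 (unadjusted p 0.00216 in limma).

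The genes most alike were sought among 12319 other genes with at least 1 FPKM, by their Pearson r with the mean profile of the 9 genes over the 6 samples. This ranking rested on Isg15, which had at most 3 fragments in any sample: of the 5 genes that led it, 0 were among the leading 5 when the profile was made from the other 8 genes. The 5 genes are therefore not named. With the 8-gene profile, 10 of the 15 other interferon-stimulated genes with at least 1 FPKM had a positive r, with a median of 0.20, against 57.2% and a median of 0.08 over all 12319 genes.

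The rest of the pathway was then followed from the ligands to the targets. None of the 12 interferon ligands on the list, which included Ifnb1, Ifng and the Ifna genes, was among the genes measured, and they were not analysed here. Of the 10 receptor and kinase genes, 8 passed the filter on low values and 0 had an unadjusted p below 0.05, with a smallest p of 0.312 (limma). The kinases Jak1 and Jak2 had the highest levels of this list. Jak1 was at 22.6 ± 1.66 FPKM in PND against 22.6 ± 1.50 FPKM in CON (SD, n = 3), and Jak2 was at 25.7 ± 1.71 against 27.2 ± 2.62 FPKM. Over all genes tested, 3.13% had an unadjusted p below 0.05, 1.4% as lower and 1.73% as higher in PND.

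The other STATs and IRFs did not pass the test either. Of 6 other STAT genes 5 were tested, with a median log2 fold change of 0.13 and a smallest unadjusted p of 0.378 (limma). Stat5b, which signals for growth hormone and cytokines, was at 2.67 ± 0.326 FPKM in PND against 2.34 ± 0.409 FPKM in CON. Stat3, the main mediator of interleukin-6 signalling, was at 1.96 ± 0.0384 against 2.02 ± 0.356 FPKM. Of 7 other IRF genes 6 were tested, with a smallest unadjusted p of 0.199 (limma). This was Irf1, an activator of interferon target genes named after its values were seen, with 0.745, 0.658 and 0.628 FPKM in PND and 0.602, 0.575 and 0.241 FPKM in CON. All PND samples of Irf1 lay above all CON samples, and the exact two-sided permutation test gave p = 0.1, the smallest possible. Irf2, a repressor of interferon target genes, was at 20.9 ± 0.407 against 20.8 ± 4.12 FPKM. Irf3, which starts the production of interferon after nucleic acid sensing, was at 1.74 ± 0.372 against 1.40 ± 0.982 FPKM, and its lowest sample, CON replicate 1 with 0.337 FPKM, was also the one in which GC-rich genes were lowest.

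Among 14 sensors and adaptors, 13 were tested, and 1 passed the cut-off. This was Tlr7, an endosomal receptor for single-stranded RNA, which was higher in PND. It had 0.668, 0.506 and 0.815 FPKM in PND and 0.255, 0.171 and 0.387 FPKM in CON. The groups did not overlap, and the difference on the log2 scale was 1.06 (SE 0.35; limma p 0.0189 before and 0.9999 after adjustment). The call was lost with a pseudocount of 1 (log2 fold change 0.39), with quantile normalization (0.99) and without PND replicates 1 or 3 or CON replicate 2. Of the 13 sensors tested, 2 had all PND samples below all CON samples and 1, Tlr7, had them above, against 3.88% and 3.78% of all genes tested. The 2 were the RNA sensors Ifih1 and Ddx58, singled out after their values were seen, at 1.04 ± 0.237 against 1.47 ± 0.0875 FPKM for Ifih1 (unadjusted p 0.0798 in limma) and 0.631 ± 0.0559 against 0.846 ± 0.107 FPKM for Ddx58 (unadjusted p 0.184).

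Of 48 other interferon-stimulated genes 38 were tested, and 0 passed the cut-off. An unadjusted p below 0.05 was found for 1 of the 38, Ifit3b, and the median log2 fold change was -0.14 with 23 of 38 below 0. In 4 of the 38 the PND samples all lay below the CON samples, and in 0 they all lay above, against 3.88% and 3.78% of all genes tested. These 4 were Ifit3b, Dtx3l, Nmi and Ddx60, the last 3 named after their values were seen. Dtx3l, a ubiquitin ligase, was at 1.97 ± 0.149 against 2.23 ± 0.0577 FPKM, with a log2 fold change of -0.17 (unadjusted p 0.358 in limma). Nmi, which binds STAT proteins, was at 0.488 ± 0.0346 against 0.830 ± 0.237 FPKM (unadjusted p 0.0756), and the helicase Ddx60 at 0.175 ± 0.0369 against 0.332 ± 0.161 FPKM (unadjusted p 0.177). Of 10 genes of ISG15 conjugation and negative control of the pathway, 8 were tested and 0 had an unadjusted p below 0.05. Pias1 and Ptpn2, the most abundant of them, were at 19.3 ± 0.507 against 20.2 ± 4.11 FPKM and at 14.6 ± 1.98 against 14.3 ± 1.92 FPKM.

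**Figure D5:**
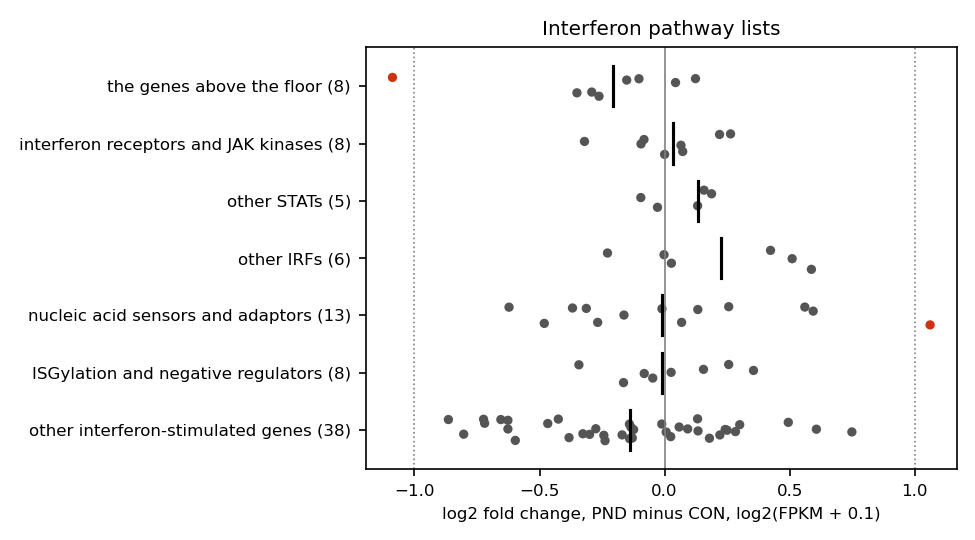
Log2 fold change of each tested gene of the 8 members above 3 fragments and of the pathway lists, with the number of genes in brackets and a black bar at the median; dotted lines mark a change of 1 in either direction. The red points, Ifit3 on the left and Tlr7 on the right, are the genes past the cut-off.

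Because the samples were whole tissue, fewer cells of a type and less RNA per cell cannot be told apart. The summed level of 10 microglial markers was 58.8 to 69.0 FPKM in PND and 56.3 to 73.4 FPKM in CON, with none at 0 in all samples. It overlapped between the groups, and 5 of the 10 markers had a log2 fold change below 0, with a median of 0.01. An unadjusted p below 0.05 was found for 1 of the 10, P2ry12, a receptor of resting microglia, which was at 5.49 ± 1.36 against 9.27 ± 1.50 FPKM (SD, n = 3; p 0.00767 and adjusted p 0.9999 in limma). Tmem119 and C1qa, also microglial, had log2 fold changes of 0.52 and 0.59 with groups that overlapped. The sum of 9 endothelial markers was 34.4 to 42.2 FPKM in PND and 29.8 to 33.7 FPKM in CON, so it lay higher in PND. Slco1a4 had the highest level of the 9, at 13.5 ± 2.21 against 10.7 ± 0.947 FPKM. Its groups overlapped (unadjusted p 0.0669 in limma). Of the 9, 3 had a log2 fold change below 0, and the median was 0.29. An unadjusted p below 0.05 was found for 1 of the 9, Ly6c1, at 5.79 ± 1.43 against 3.23 ± 0.117 FPKM (p 0.00568 and adjusted p 0.9999 in limma). Tek was at 1.70 against 2.24 FPKM with groups that did not overlap (unadjusted p 0.0776). The sum of 5 choroid plexus markers was 2.20 to 2.82 against 1.15 to 2.15 FPKM, with Ttr at no more than 0.207 FPKM. Of the 2 tested, 1 had an unadjusted p below 0.05, Clic6, at 1.84 ± 0.319 against 1.05 ± 0.399 FPKM (p 0.0319 and adjusted p 0.9999 in limma), which made up most of the sum. The part of these cell types in the levels of the 9 genes was not tested. Of 8 blood leukocyte markers 5 had a row, with sums of 0.475 to 0.728 FPKM in PND and 0.563 to 0.821 FPKM in CON. Ccr2, a marker of monocytes, was at no more than 0.0612 FPKM in any sample. Sums of the other marker lists overlapped between the groups.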

How the data were processed

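The authors depleted ribosomal RNA, sequenced on an Illumina HiSeq instrument, filtered reads with Seqtk, aligned them with HISAT2, counted fragments per gene with StringTie and scaled them by TMM. The deposited values were FPKM, 1 column per mouse. The submitters' processing notes name the builds mm8 and mm9 and Bowtie 0.12.2 without saying for which files, and the methods state no build, annotation or use of strand for these files. Symbols were matched by identifier (20866 of 21006), and GENCODE M21 (GRCm38) gave coordinates, GC content and exon lengths.

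Fragments were estimated as FPKM times exon length times the depth at which the most low values came near whole numbers, and 41.6% to 44.8% of these lay within 0.05 of one. They describe precision and cover counting error only, and a floor of 3 fragments was used. limma 3.58.1 (R 4.3.3; lmFit and eBayes with an intensity trend) was run on log2(FPKM + 0.1) for genes whose mean reached 0.1 FPKM, without covariate. Adjusted p-values are Benjamini-Hochberg over all genes tested. No p was adjusted over the 9 genes.

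The members and lists were chosen with earlier results of these data known. From the pathway lists, genes with an unadjusted p below 0.05 were named, and otherwise the 2 with the highest level. Irf1, Ifih1, Ddx58, Dtx3l, Nmi and Ddx60 fall outside this rule and were named for groups that did not overlap. Groups came from the treatment labels and replicate numbers from the titles. Nothing states that same-numbered mice shared a cage or day. No pair of samples held identical values (0 of 15).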

Additional observations from a re-analysis of the deposited data

How the results depend on the processing

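Ifit3 stayed lower in PND with an unadjusted p below 0.05 in all 17 alternatives (limma, p from 0.00084 to 0.0156), while its adjusted p lay between 0.717 and 1. Its log2 fold change ranged from -1.28 to -0.84 and fell short of the cut-off with a pseudocount of 1 (-0.86), without PND replicate 3 (-0.84) and as the sum with Ifit3b (-0.97). The number of members past the cut-off was 0 with a pseudocount of 1. Across fits without 1 sample it was 0 to 2. The 2 arose without CON replicate 2, when Isg15 was added on at most 3 fragments a sample. For all genes, 241 passed the cut-off, 88 lower and 153 higher in PND, against 25 with a pseudocount of 1 and 59 among genes averaging 1 FPKM or more. Quantile normalization gave 240, of which 116 were lower and 124 higher. Without 1 sample the total was 240 to 402, the highest without CON replicate 2 (105 lower and 297 higher). Without PND replicate 3 more genes were lower (125) than higher (115), and in the other fits without 1 sample more were higher. In the pathway lists 1 gene passed, against 0 with a pseudocount of 1, among genes averaging 1 FPKM or more and with quantile normalization. Without 1 sample this was 0 to 4, namely 0 without PND replicate 1, 2 without CON replicate 3 and 4 without CON replicate 2.

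Without 1 sample the log2 fold change ranged from -0.40 to 0.32 for Ifit1, from -0.10 to 0.19 for Stat2, from -0.51 to 0.21 for Irf9, from -0.32 to 0.48 for Bst2 and from -0.52 to 0.17 for Ifi27. That of Stat2 was -0.0026 with the GC correction, with or without the replicate block. The cause of these shifts was not tested. Irf7 ranged from -0.44 to -0.036 (-0.036 without PND replicate 1 and -0.056 without CON replicate 1) and Oasl2 from -0.44 to -0.25. Irf7 was at -0.54 with quantile normalization and -0.59 with voom. When genes had to average 1 FPKM, Irf7, Irf9, Isg15, Oasl2 and Bst2 were not tested, and voom left out Isg15.

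Both groups use replicate numbers 1 to 3. Deviations from the group mean of same-numbered samples correlated at -0.049, -0.45 and 0.027, and those of other pairs at a mean of 0.079. Taking deviations from the group mean ties these values to each other, so they cannot show whether same-numbered mice were paired. In the fit with the replicate block, 226 genes and 1 member, Ifit3 (unadjusted p 0.0112 in limma), passed the cut-off. Adding Ifit3 to Ifit3b, running voom and leaving Isg15 out of the correlations were alternatives chosen after seeing the data. Depth limits Isg15, Irf7 and Bst2, none of which reached 12 fragments in a sample.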
